A study of Sus scrofa with 54 samples.

Results

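Blood and skeletal muscle were compared in 2 pigs, 4491 and 4494, with 3 samples of each tissue from each animal. The comparison held 12 of the 54 samples of the study, which took heart micro-biopsies and reference tissues from 5 pigs. The members were chosen by tissue label alone, with no measured value used: 6 samples labelled blood and 6 labelled skeletal muscle, all at baseline. The animals were naïve adult female Yorkshire-Swedish farm swine under anaesthesia, sampled on the day of the first procedure, and both tissues came from the same animals, so each pig served as its own reference. The muscle was taken from the groin and the blood was peripheral whole blood. Total RNA was sequenced with a stranded low-input kit, and each value below started from the number of reads counted per gene.

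Skeletal muscle is made of long multinucleate fibres in which myosin thick filaments pull on actin thin filaments anchored at Z-discs, with calcium released from the sarcoplasmic reticulum as the trigger and glycogen and mitochondria as the fuel supply. Blood RNA comes from leukocytes and from the reticulocytes and platelets that still carry transcripts, since mature mammalian red cells have no nucleus. A muscle sample also holds vessels, fibroblasts, nerve and the blood inside its capillaries. In bulk samples of this kind, fewer cells of a type and less RNA per cell cannot be told apart.

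The samples held 325907 to 4175898 counted reads. The shallowest was muscle sample 57 of pig 4491, and the next shallowest, muscle sample 1 of pig 4494, held 976137. Sample 57 stood apart from the other 5 muscle samples in its counts. Pearson's r of log2 CPM across genes was 0.540 to 0.616 between sample 57 and the other muscle samples, and 0.893 to 0.953 among those 5 (genes are not independent replicates). Its TMM factor, which scales the library size for composition, was 1.46, against 0.616 to 0.811 in the other muscle samples, and the CPM values below use that scale. It lay at 162 on the second principal component, where the other muscle samples lay between -36.1 and -5.19. Muscle transcripts were abundant in it all the same: ACTA1, the actin of the skeletal thin filament, stood at 8153 CPM in sample 57 against at most 1.23 CPM in any blood sample. All results below are given with it, and without it where it changed a call or a value.

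Blood reads were spread over more genes than muscle reads at the top of the ranking. The 10 most abundant genes of a sample took 10.3 to 24.2% of its counts in blood (median 14.3%). In muscle they took 24.4 to 31.6% in 5 samples and 14.6% in sample 57. The mean share was 9.43 percentage points lower in blood (two-sided exact permutation test of tissue labels within pigs, p = 0.025, where 0.005 is the smallest p that 400 relabellings allow). Without sample 57 the difference was 11.6 points with p = 0.005 by the same exact test, and without blood sample 14 or blood sample 27 the exact p rose to 0.055. Blood samples 20 and 51, at 20.9% and 24.2%, came closest to muscle, and no blood sample exceeded the lowest of those 5 muscle samples. P-values here and below measure the spread among samples of the same 2 animals.

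Sample 57 decided how many genes were needed to reach 50% of the counts. Blood needed 339 to 519 genes and the other 5 muscle samples needed 45 to 114, but sample 57 needed 1000, more than any other of the 12. The difference of means was 204.5 genes with all samples (exact permutation p = 0.215) and 357 genes without sample 57 (exact permutation p = 0.005). The number of genes detected did not separate the tissues. With every sample thinned to 325907 counts, blood had 8782 to 10282 genes at 1 CPM or more, the other muscle samples 9526 to 11943 and sample 57 14277. Blood averaged 1069 genes fewer (exact permutation p = 0.28), and 402 fewer without sample 57 (p = 0.555 by the same exact permutation test). At this depth a single count exceeds 1 CPM, so this measure equals the number of genes with a count.

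**Figure D1:**
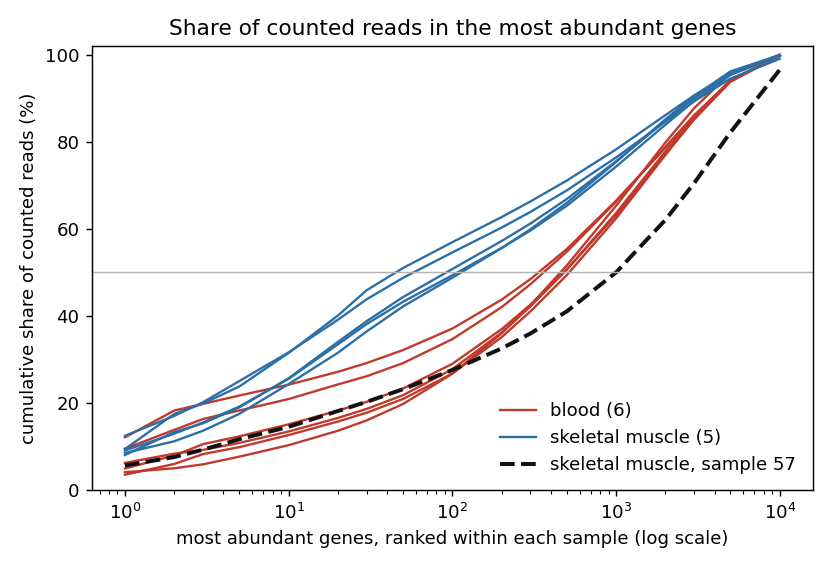
Cumulative share of counted reads (%) against the number of most abundant genes (log scale), each gene ranked within its own sample, with 1 line per sample for 6 blood samples, 5 skeletal muscle samples and muscle sample 57. The 5 muscle lines cross 50% at 45 to 114 genes, the blood lines at 339 to 519 genes, and the dashed line of sample 57 at 1000 genes.

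The named genes among the 10 most abundant in blood were HBB, MACF1, ALAS2 and ACTB. The first rank was held by ENSSSCG00000007978, which has no symbol in the name table, with 5.72% of counts on average and a range of 0.911 to 12.2%. It was highest in samples 51 and 20 and lowest in sample 5. HBB, the beta chain of adult haemoglobin, took 4.21 ± 1.35% (SD, n = 6), within 2.12 to 6.14%. In muscle, both genes stayed low in every sample, at 0.00283% or less for the first and 0.00256% or less for HBB. ALAS2, which catalyses the first step of haem synthesis in erythroid cells, ranked ninth with 0.465 ± 0.147%. MACF1, a large linker of actin and microtubules, took 0.675 ± 0.261%, and ACTB, cytoplasmic beta-actin, 0.429 ± 0.27%. The other 5 of the blood top 10 carry no symbol in the name table, and 1 of them, ENSSSCG00000025162, took a larger share in muscle (0.752% against 0.505% on average). A share of reads depends on transcript length, so these ranks are not ranks of molecules.

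Muscle counts were led by the contractile apparatus, with all 10 top genes named. A sarcomeric myosin heavy chain gene labelled MYH8 took 8.9 ± 2.21% (SD, n = 6), and its highest share in blood was 0.00207%. The myosin heavy chain genes are near-identical copies in 1 cluster, so reads of this gene and its neighbours may not be separable, and the label is uncertain. ACTA1 followed with 4.24 ± 2.4%, ranging from 1.00% in sample 57 to 8.07% in sample 43. NEB, the giant ruler protein of the thin filament, took 2.24 ± 0.542%. XIRP2, an actin-binding repeat protein of myotendinous and intercalated junctions, took 2.15 ± 0.546%. The remaining top genes were TPM2, MYL1, ATP2A1, CMYA5, TPM1 and TNNC2, each at 0.785 to 1.67% on average. MYL1, an essential myosin light chain, and TNNC2, the calcium-binding troponin of fast fibres, had no count in any blood sample.

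Differences between the tissues were tested gene by gene with edgeR's quasi-likelihood test with pig as a covariate. A gene was called when its Benjamini-Hochberg adjusted p was under 0.05 and its fold change over 1 on the log2 scale in either direction. Log2 fold changes are of blood over muscle, so positive values are higher in blood, and levels are CPM, counts scaled to the size of the TMM-adjusted library. The SE given with a log2 difference is its absolute value divided by the square root of the test's F statistic. It restates the test and is not a separate estimate of precision. Of 9532 genes tested, 1866 were higher in blood (19.6%) and 2272 in muscle (23.8%). These shares are the background for the list members called in this fit. The groups of samples did not overlap in 1174 of the genes called higher in blood and 1629 of those called higher in muscle, against 2950 of all 9532 tested genes (30.9%). Without sample 57 these numbers were 1430, 1999 and 3863. Within pig 4494 alone the counts were 2070 and 2339, and within pig 4491 alone 1015 and 1634, or 1430 and 2075 without sample 57. Scaling to total counts without TMM gave 3044 and 1656, and moved the median log2 fold change of all tested genes from 0.02 to 0.63. Blood therefore held 45.1% of calls with TMM and 64.8% without. With DESeq2 blood held 36.0% of the calls, and with no filter on low counts 33.2%.

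Haemoglobin and erythroid haem genes were far higher in blood, while most enzymes in the middle of haem synthesis were not called. Of the 11 tested genes of haemoglobin and haem synthesis, 6 were called higher in blood and 1 in muscle, with a median log2 fold change of 1.26 against 0.02 over all genes tested. This median depended on the members tested. It was 3.98 over 7 members at equal depth. With the most abundant genes of each tissue removed, HBB and ALAS2 among them, it was -0.06 over 9 members. HBB lay at 16959 to 55138 CPM (median 36029) in blood and at 5.1 to 42.1 CPM (median 16.5) in muscle, a log2 difference of 11.02 ± 0.76 (SE), adjusted p = 5.23e-09. ALAS2 lay at 2939 to 5978 CPM (median 3402) in blood, and only 3 reads were counted in all 6 muscle samples, for a ratio of 11422 (exact interval 3908 to 55385), where intervals cover counting error only. HBM, an alpha-like haemoglobin chain, had 2 counts in muscle and 65.1 to 787 CPM (median 149.5) in blood, a ratio of 1813 (exact interval 502 to 14975). For none of these 3 genes did the levels overlap between the tissues.

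SLC25A39, a mitochondrial carrier, was at 82.5 to 537 CPM (median 312) in blood and 9.96 to 44.1 CPM (median 13.1) in muscle (log2 difference 4.05 ± 0.48 (SE), adjusted p = 2.38e-06). FECH, which inserts iron into protoporphyrin as the last step of haem synthesis, was higher in blood by 1.90 ± 0.26 on the log2 scale. UROD, which acts in the cytosolic middle of the pathway, went the other way at -1.65 ± 0.54 (SE), adjusted p = 0.0172, with 1.45 to 7.88 CPM (median 5.01) in blood and 7.75 to 24.8 CPM (median 17.1) in muscle. The lowest muscle sample overlapped the highest blood sample, and the call was lost under 7 alternative settings. The enzymes PPOX, CPOX and UROS were not called, with log2 differences of -0.84, -0.43 and 0.03.

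The erythrocyte membrane and erythroid regulator list divided by gene. Of 12 tested genes, 7 were higher in blood and 2 in muscle (median log2 fold change 3.42, 4.92 without sample 57, and 0.65 over 16 members with no filter on low counts). The median over all genes of the unfiltered fit was -0.86. EPB41, the protein 4.1 that ties spectrin to the membrane, was at 1681 to 4062 CPM (median 2283) in blood and 89.6 to 288 CPM (median 181) in muscle (log2 difference 3.75 ± 0.36 (SE), adjusted p = 2.26e-07). The genes higher in muscle were ANK1 and SPTB, ankyrin and beta-spectrin, both named for the red cell and both also made as muscle forms. ANK1 was at 14.3 to 27.9 CPM (median 22.3) in blood and 366 to 1644 CPM (median 1247) in muscle, a log2 difference of -5.73 ± 0.37 (SE), adjusted p = 3.07e-09. SPTB was at 4.51 to 57.8 CPM (median 15.2) in blood and 237 to 1333 CPM (median 913) in muscle, a log2 difference of -5.61 ± 0.55 (SE), adjusted p = 3.01e-07. For both genes the lowest muscle value was that of sample 57, at 366 and 237 CPM, and the tissues did not overlap. TFRC, the transferrin receptor, was not called (-0.60 ± 0.32 (SE), adjusted p = 0.131).

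Most leukocyte genes were higher in blood. Among the neutrophil markers, 9 of 10 tested genes were higher in blood. The same held for 8 of 12 monocyte markers, 19 of 21 T and NK cell markers and 7 of 8 B cell markers. No gene of these 4 lists was called higher in muscle, against 23.8% of all genes tested. The median log2 fold changes of the members that passed the filter were 4.33, 2.89, 5.01 and 4.84 in that order. With no filter on low counts they were 1.13, 2.48, 4.97 and 4.82, with 9 of 19, 10 of 16, 22 of 23 and 8 of 9 members called higher in blood. That unfiltered fit called 1928 of all 18849 genes higher in blood and 3879 in muscle, with a median of -0.86. The neutrophil median was 1.49 with DESeq2, with 8 of 17 called. DESeq2 called 2002 of all 18849 genes higher in blood, with a median of -0.92. Without sample 57, 10 monocyte and all 21 T and NK cell markers were called, against 21.7% of genes called higher in blood and 25.0% higher in muscle in that fit, and the neutrophil and B cell counts did not change. PTPRC, the CD45 phosphatase carried by all leukocytes, lay at 2729 to 4071 CPM (median 2985) in blood and 19.9 to 49.3 CPM (median 29.1) in muscle (log2 difference 6.57 ± 0.34 (SE), adjusted p = 2.98e-10).

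T and NK cell genes took 0.409 to 0.506% of blood counts in sum. TCF7, a transcription factor of naive T cells, was at 696 to 978 CPM (median 892) in blood and 0 to 44.8 CPM (median 1.98) in muscle, with a log2 difference of 6.95 ± 0.83 (SE), adjusted p = 2.59e-06. CD2, an adhesion receptor of T and NK cells, was at 415 to 682 CPM (median 535) in blood. In muscle, CD2 was at 3.75 to 13.9 CPM in 5 samples and at 67.2 CPM in sample 57, and the log2 difference was 5.36 ± 0.50 with and 5.96 ± 0.29 without that sample. LEF1, the partner of TCF7, and CD247, the zeta chain of the T cell receptor complex, were higher in blood by 7.24 ± 0.72 and 6.24 ± 0.48 on the log2 scale. The tissues did not overlap for any of these 4 genes.

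Of the B cell genes, MS4A1, which encodes CD20, lay at 179 to 399 CPM (median 258) in blood and had 8 counts in all muscle samples (log2 difference 8.03 ± 0.73 (SE), adjusted p = 1.22e-07). BLK, a B cell kinase, had 1 count in muscle, in sample 57, and 99.2 to 210.4 CPM (median 141) in blood, a ratio of 1294 (exact interval 232 to 51113). CD22 was higher in blood by 4.80 ± 0.73 on the log2 scale and BLNK, an adaptor of the B cell receptor, by 2.75 ± 0.56. The listed B cell genes BANK1, BTK and FCRLA had no count in any of the 12 samples. EBF1, a factor of early B cells that fibroblasts and fat cells also express, was not called (-0.04 ± 0.46, adjusted p = 0.955).

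Neutrophil genes of the oxidase and of adhesion were higher in blood. ITGB2, the common chain of leukocyte integrins, was at 95.5 to 511 CPM (median 203) in blood and at a median of 4.11 CPM in muscle, with no overlap (log2 difference 5.60 ± 0.45 (SE), adjusted p = 2.96e-08). NCF1, a subunit of the phagocyte oxidase, and MXD1, a MYC antagonist of mature neutrophils, were higher by 5.16 ± 0.57 and 3.96 ± 0.49 on the log2 scale. Granule genes were uneven. MMP9, a gelatinase of the granules, had 1208 counts in blood and 1 in muscle, a ratio of 598 (exact interval 107 to 23622), and MMP25, a membrane-bound relative, was not called (1.16 ± 1.06 (SE), adjusted p = 0.391). MPO, ELANE and MMP8 had no count in blood, which allows up to 3 counts in the 6 samples together, and CSF3R had none in any of the 12. These 6 genes were singled out after their values were seen.

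Monocyte and platelet genes were also higher in blood, with several muscle values raised in sample 57 alone. SPI1, the PU.1 factor of myeloid cells, lay at 44.6 to 227 CPM (median 75.8) in blood and at 1.28 to 52.3 CPM (median 3.93) in muscle, where the highest value was sample 57 (log2 difference 3.71 ± 0.72 (SE), adjusted p = 0.000405). FCER1G, a signalling chain of Fc receptors, was higher in blood by 2.93 ± 0.58 and CTSS, a lysosomal protease, by 2.19 ± 0.40 on the log2 scale. For both genes the sample 57 value, 49.8 and 109.6 CPM, lay above the other muscle samples and overlapped the blood range. VCAN, a proteoglycan of monocytes and of connective tissue, had an adjusted p of 0.0363 but a log2 difference of 0.88, under the threshold of 1. Of 5 tested platelet genes, 3 were higher in blood and none in muscle (median 3.98), against 19.6% and 23.8% of all genes tested. With no filter on low counts 3 of 14 were higher in blood and 1 in muscle (median 1.48). Over all 18849 genes of that fit, 1928 were higher in blood and 3879 in muscle (median -0.86). TUBB1, the tubulin of platelets, was at 21.6 to 318 CPM (median 62.4) in blood and 0 to 52.3 CPM (median 0) in muscle (log2 difference 4.48 ± 1.25 (SE), adjusted p = 0.00678), and without sample 57 the difference was 6.16 ± 1.08. F13A1, a clotting factor chain, was higher in blood by 4.08 ± 0.62 on the log2 scale. ITGB3, the beta chain of the platelet fibrinogen receptor, was not called (0.60 ± 0.52 (SE), adjusted p = 0.363).

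The genes higher in blood with the smallest adjusted p were ALAS2, APBB1IP, PTPRC, LCP1, HMMR, SKAP1, GIMAP4, ITGAL, MAP3K1 and IL10RA. LCP1, the actin-bundling plastin of leukocytes, was at 1012 to 1333 CPM (median 1138) in blood and 17.7 to 42.3 CPM (median 24.9) in muscle (log2 difference 5.46 ± 0.28 (SE), adjusted p = 3.31e-10). SKAP1, an adaptor of T cell adhesion, had 1 count in muscle and 83.3 to 167 CPM (median 131) in blood, a ratio of 1107 (exact interval 198 to 43727). HMMR, a hyaluronan receptor that binds the mitotic spindle, was at 555 to 1522 CPM (median 1062) in blood and 1.07 to 12.5 CPM (median 3.69) in muscle (log2 difference 7.78 ± 0.43 (SE), adjusted p = 6.5e-10). APBB1IP, which links Ras signals to integrins, GIMAP4, a lymphocyte GTPase, ITGAL, the alpha chain of LFA-1, MAP3K1, a stress kinase, and IL10RA, the interleukin 10 receptor, differed by 4.14 to 6.03. Of the genes with no symbol, ENSSSCG00000009046 and ENSSSCG00000009240 had the smallest adjusted p, at 1.29e-10 and 3.61e-10.

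**Figure D2:**
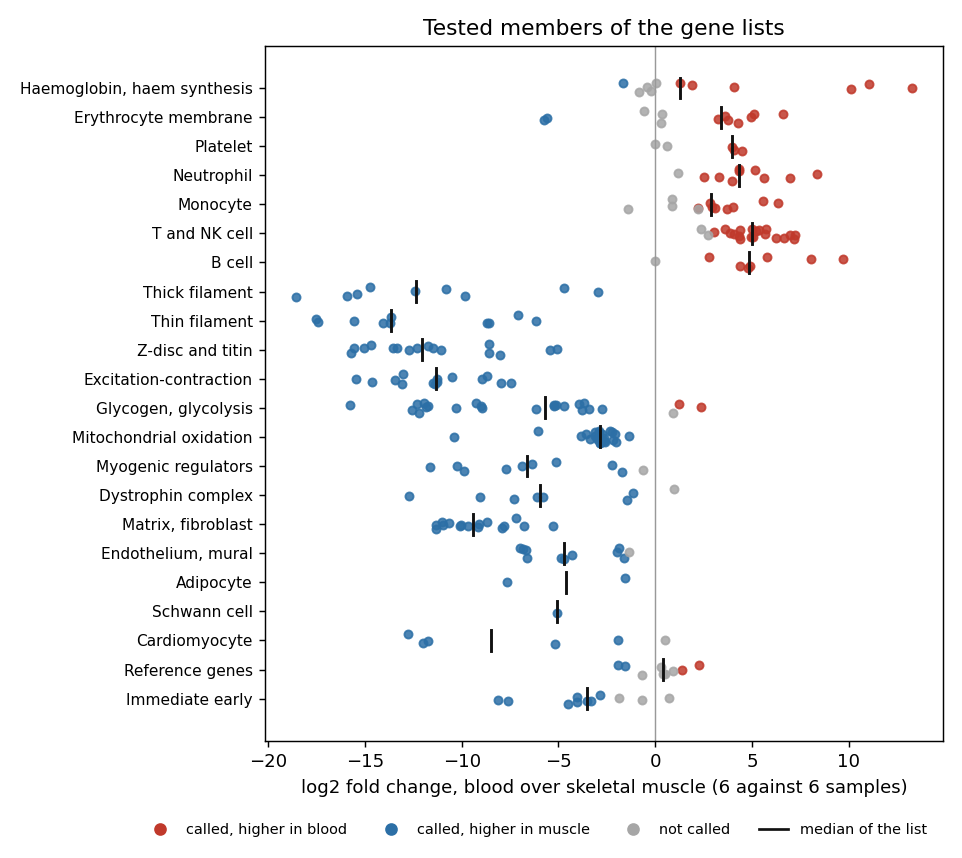
Log2 fold change of blood over skeletal muscle (6 against 6 samples) for each tested member of 22 gene lists, 1 point per gene, coloured by call, with a black bar at the median of each list. ANK1, SPTB and UROD are the only members of blood cell lists called higher in muscle, and all tested members of the filament, Z-disc, excitation-contraction, mitochondrial and matrix lists lie to the left.

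Every tested gene of the contractile lists was higher in muscle: 9 of 9 thick filament, 10 of 10 thin filament, 16 of 16 Z-disc and 14 of 14 excitation-contraction genes. Their median log2 fold changes were -12.38, -13.67, -12.04 and -11.33. These medians were the same with genes that lacked counts in blood set to their bounds. ACTA1 lay at 8153 to 132656 CPM (median 58820.3) in muscle and had 5 counts in all blood samples together (log2 difference -17.42 ± 1.17 (SE), adjusted p = 3.96e-09). The gene labelled MYH8 was at 46180.1 to 185065 CPM (median 114682) in muscle and at 0 to 16.6 CPM (median 1.37) in blood (log2 difference -15.38 ± 1.24 (SE), adjusted p = 3.23e-08). MYL1 lay at 13878 to 25974 CPM (median 22395) in muscle and TNNC2 at 3616 to 16997 CPM (median 11329). MYL1 was at least 133985-fold higher in muscle and TNNC2 at least 75189-fold higher, taking 3 counts over the 6 blood samples as the floor.

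NEB was at 11333 to 43825 CPM (median 31672) in muscle and 0 to 6.32 CPM (median 0.909) in blood (log2 difference -14.03 ± 1.00 (SE), adjusted p = 7.2e-09). TPM2, beta-tropomyosin, was counted more often in blood, at 108 to 291 CPM (median 140.1), against 4430.0 to 31223 CPM (median 25334) in muscle (log2 difference -7.07 ± 0.60 (SE), adjusted p = 5.31e-08). The ranges of all these filament genes were far apart. In TMM-scaled CPM the lowest muscle value was sample 57 for each of ACTA1, MYH8, MYL1, TNNC2, NEB and TPM2. By plain share of counts this did not hold for MYL1. DES, the intermediate filament desmin that links Z-discs, had 1 count in blood and 1322 to 11107 CPM (median 4764) in muscle, a ratio of 117833 (exact interval 21148 to 4654251). XIRP2 differed by -13.33 ± 0.84 and TRIM63, the ubiquitin ligase MuRF1 of the sarcomere, had the smallest adjusted p of the genes higher in muscle together with DDIT4L, at 4.51e-11. TRIM63 had 1 count in blood and lay at 376 to 649 CPM (median 613) in muscle, a ratio of 10759 (exact interval 1930.1 to 425022).

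Calcium handling followed the filaments. ATP2A1, the SERCA1 calcium pump of fast fibres, lay at 4537 to 28005 CPM (median 21168) in muscle and 0 to 2.87 CPM (median 0.109) in blood (log2 difference -14.65 ± 0.93 (SE), adjusted p = 2.57e-09). TRDN, triadin of the calcium release complex, had no count in blood and 774 to 3287 CPM (median 2858) in muscle, where it was at least 16174-fold higher. CASQ1, the calcium store protein calsequestrin, and SLN, the SERCA regulator sarcolipin, differed by -11.37 ± 0.76 and -10.48 ± 0.64 on the log2 scale. Beside TRIM63, the genes with the smallest adjusted p in this direction were DDIT4L, a stress-induced regulator of growth signalling, LIFR, a cytokine receptor, the laminin chains LAMB1 and LAMA4, the matrix protein SPARCL1, the calcium-binding HRC, the slow troponin TNNT1, the Z-disc protein CSRP3 and the slow myosin-binding protein MYBPC1. Their adjusted p values were 4.51e-11 to 1.58e-10, and each had 9 or fewer counts in the 6 blood samples together. Of the genes with no symbol, ENSSSCG00000025396 and ENSSSCG00000028063 had the smallest adjusted p, at 1.29e-10 and 1.72e-10.

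Most genes of glycogen use and glycolysis were higher in muscle. Of 24 tested genes of glycogen and glycolysis, 21 were higher in muscle and 2 in blood (median log2 fold change -5.70). Over all genes tested these shares were 23.8% and 19.6%. PYGM, muscle glycogen phosphorylase, lay at 1155 to 12755 CPM (median 10163) in muscle and 0 to 4.81 CPM (median 1.61) in blood (log2 difference -12.21 ± 0.91 (SE), adjusted p = 1.22e-08). ENO3, the muscle enolase, differed by -12.30 ± 0.73, whereas ENO1, the general enolase, differed by 0.92 ± 0.31 and was not called. PGAM2, the muscle phosphoglycerate mutase, differed by -8.98 ± 0.82, and PGAM1, the general form, was higher in blood at 42.5 to 75.8 CPM (median 56.8) against 4.98 to 17.7 CPM (median 9.17) (log2 difference 2.37 ± 0.37 (SE), adjusted p = 4.37e-05). HK2, the insulin-sensitive hexokinase, differed by -3.77 ± 0.52 and HK1, the form that red cells and brain rely on, by 1.21 ± 0.32 (SE), adjusted p = 0.00505. HK1 lay at a median of 94.1 CPM in blood, with a lowest value of 68.0 CPM, and 19.1 to 43.9 CPM in 5 muscle samples, with sample 57 inside the blood range at 79.7 CPM. ENO1, PGAM2 and HK2 were picked for these pairs after their values were seen.

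GAPDH, often used as a reference gene, differed by -6.16 ± 0.50 on the log2 scale, at 94.0 to 195 CPM (median 139.9) in blood and 2283 to 13593 CPM (median 11584) in muscle, and it has many near-identical copies whose reads may not be separable. PKM, pyruvate kinase, differed by -4.69 ± 0.41. All 24 tested genes of mitochondrial oxidation were higher in muscle, against 23.8% of all genes tested (median -2.87, with the 4 most abundant at -6.04 to -2.83). SLC25A4, the muscle ADP/ATP carrier, lay at 289 to 1971 CPM (median 1352) in muscle and 12.0 to 23.9 CPM (median 19.5) in blood (log2 difference -6.04 ± 0.43 (SE), adjusted p = 7.63e-09). MDH2, a citric acid cycle enzyme, PDHA1, of pyruvate dehydrogenase, and ATP5F1A, of ATP synthase, differed by -3.86 ± 0.43, -3.60 ± 0.33 and -2.83 ± 0.28. Genes encoded by the mitochondrial genome were left out of the table by the authors and are not analysed here.

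Muscle regulators and the membrane complex were also higher in muscle. Of 10 tested myogenic regulators, 9 were called higher in muscle, against 23.8% of all genes tested. MYF6, the myogenic factor of mature fibres, had no count in blood and 69.7 to 252 CPM (median 189) in muscle, where it was at least 1226-fold higher. MEF2C, a factor shared by muscle and B cells, lay at 341 to 802 CPM (median 555) in muscle and 73.8 to 189 CPM (median 106) in blood (log2 difference -2.23 ± 0.28 (SE), adjusted p = 3.87e-06). MEF2A differed by -1.72 ± 0.25, and MEF2D, with -0.63 ± 0.24, was under the threshold of 1. Of 8 tested genes of the dystrophin complex, 7 were called higher in muscle. DMD, dystrophin, lay at 1108 to 3039 CPM (median 2157) in muscle and 0.332 to 10.1 CPM (median 3.01) in blood (log2 difference -9.06 ± 0.63 (SE), adjusted p = 5.85e-09), and SSPN, sarcospan, was at least 2377-fold higher in muscle. DYSF, the membrane repair protein dysferlin, differed by -7.31 ± 0.70. UTRN, the widely expressed relative of dystrophin, was at 138 to 223 CPM (median 191) in blood and 63.5 to 133 CPM (median 98.0) in muscle, with a log2 difference of 0.97 ± 0.23, under the threshold of 1, that was 1.09 ± 0.21 without sample 57.

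The cells between the fibres were visible as well. All 16 tested matrix and fibroblast genes and 10 of 11 endothelial and mural genes were higher in muscle, against 23.8% of all genes tested. Their medians were -9.43 and -4.70. The matrix median was -9.14 with the 1 gene lacking counts in blood set to its bound. COL3A1, the fibrillar collagen III chain, lay at 2141 to 5829 CPM (median 2739) in muscle and 0 to 6.32 CPM (median 0) in blood (log2 difference -11.34 ± 0.90 (SE), adjusted p = 2.74e-08). FBN1, the microfibril protein fibrillin, was highest in sample 57 at 1404 CPM against 351 to 699.8 CPM in the other 5 muscle samples, and differed by -9.69 ± 0.74. COL6A3 and COL1A2 differed by -11.03 ± 0.72 and -10.02 ± 0.96. ACTA2, the actin of smooth muscle, was also highest in sample 57, at 448 CPM against 139 to 223 CPM (log2 difference -7.01 ± 0.53 (SE), adjusted p = 1.53e-08).

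KDR, the VEGF receptor of endothelium, lay at 128 to 264 CPM (median 178) in muscle and 0.82 to 14.5 CPM (median 8.69) in blood (log2 difference -4.70 ± 0.46 (SE), adjusted p = 2.95e-07), and FLT1, its relative, differed by -6.83 ± 0.70. PECAM1, which endothelium shares with platelets and leukocytes, differed by -1.99 ± 0.24 (SE), adjusted p = 2.33e-06, with 232 to 582 CPM (median 436) in muscle and 68.9 to 156 CPM (median 93.1) in blood. Of the fat cell genes, PLIN4 and SCD were tested and called. PLIN4, a lipid droplet coat protein, differed by -7.65 ± 0.88. SCD, a fatty acid desaturase, was at 1.58 to 74.7 CPM (median 46.8) in muscle with the highest value in sample 57, and its log2 difference of -1.54 ± 0.59 (SE), adjusted p = 0.0406 fell short without that sample, at -0.87 ± 0.57 with an adjusted p of 0.215. Among nerve sheath genes only NCAM1 passed the filter. Muscle fibres and their satellite cells also express NCAM1.

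Heart markers were also examined, but with no heart sample in the comparison they cannot check the tissue label. ACTC1 and CSRP3, which both striated muscles express, were at 152 to 932 CPM (median 184) and 161 to 897 CPM (median 220.3) in muscle, with the highest values in samples 31 and 43, respectively. Of 6 tested members of the heart list, 5 were called higher in muscle, and 4 without sample 57. Over all genes tested the shares were 23.8% and 25.0%. ACTC1 was at least 2664-fold higher in muscle than in blood, and CSRP3 differed by -11.75 ± 0.54. The gene labelled MYH6 lay at 1160.4 to 15624 CPM (median 8101) in muscle (log2 difference -12.01 ± 0.79 (SE), adjusted p = 3.35e-09), and this label is uncertain because slow skeletal fibres express its near-identical neighbour MYH7, which no matched ID carried. RYR2, the heart form of the calcium release channel, was at 9.06 to 41.1 CPM in 5 muscle samples and at 177 CPM in sample 57. MYBPC3, the cardiac myosin-binding protein C, was not called (0.51 ± 1.79) and was at 0 to 8.52 CPM in those 5 and above all of them in sample 57, with 41 counts, and was singled out after its value was seen. NEBL, the nebulette of heart Z-discs, was called with sample 57 (log2 difference -1.92, adjusted p = 0.0385) and not without it (-1.46, adjusted p = 0.1). TNNT2 had at most 32.4 CPM in any muscle sample, and NPPB had no count.

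Of 9 tested genes in use as references, 2 were higher in blood and 2 in muscle, which is near the background shares of 19.6% and 23.8% and so no result about the list. The other 5 were not called. ACTB lay at 1837 to 8539.6 CPM (median 2434) in blood and 406 to 1628 CPM (median 566) in muscle (log2 difference 2.26 ± 0.47 (SE), adjusted p = 0.000656). YWHAZ, a 14-3-3 protein, was higher in blood by 1.38 ± 0.20. VCP, a protein-unfolding ATPase, was lower in blood, with a log2 difference of -1.54 ± 0.30. With total counts in place of TMM, 5 were higher in blood and 1 in muscle, and the list median moved from 0.41 to 1.09 while that of all genes moved to 0.63. The total-count fit called 3044 of all 9532 genes higher in blood and 1656 in muscle. RPS18 and RAB7A were not called, at 0.52 ± 0.29 and -0.71 ± 0.30.

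Immediate early genes, which cells switch on within minutes of stress or injury, were higher in muscle for 8 of 11 tested genes (median -3.55). Over all genes tested the share was 23.8%. FOS lay at 106 to 2163 CPM (median 438) in muscle and 0.82 to 7.31 CPM (median 1.58) in blood (log2 difference -8.10 ± 0.69 (SE), adjusted p = 5.37e-08). EGR1 lay at 231 to 3885 CPM (median 661) in muscle and 0.724 to 8.64 CPM (median 5.24) in blood (log2 difference -7.63 ± 0.74 (SE), adjusted p = 2.69e-07). Muscle sample 43 was highest for both genes, and no muscle sample overlapped the blood range. ATF3 differed by -4.06 ± 0.50. MYC was not called with all samples at 0.69 ± 0.30, and was called higher in blood without sample 57 at 1.05 ± 0.23. Sample 57 had 209 CPM against 41.1 to 81.1 CPM in the other muscle samples.

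**Figure D3:**
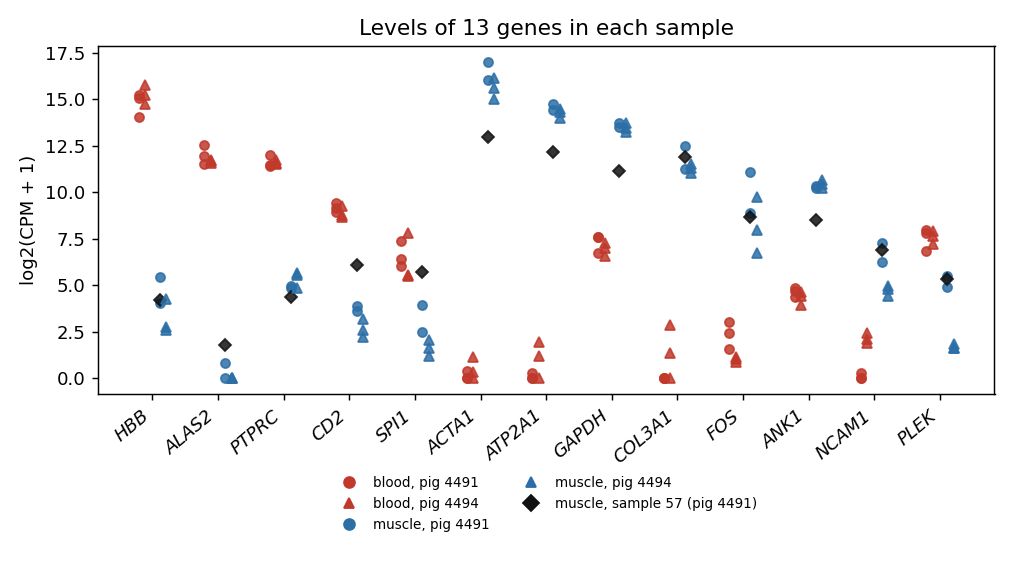
Levels of 13 genes as log2(CPM + 1) in each of the 12 samples, blood in red, muscle in blue, pig 4491 as circles, pig 4494 as triangles and muscle sample 57 as a black diamond. Sample 57 lies below the other muscle samples for ACTA1, ATP2A1, GAPDH and ANK1 and above them for CD2 and SPI1, and the muscle values of NCAM1 and PLEK divide by pig.

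Sample 57 differed from the other muscle samples in both directions at once. Leukocyte and platelet lists took a larger share of its counts, and so did the matrix, endothelial, fat cell and nerve sheath lists. T and NK cell genes took 0.0697% (95% Wilson interval 0.0612 to 0.0793%) against 0.00102 to 0.00873% in the other 5 muscle samples, and blood took 0.409 to 0.506%. For neutrophil genes the share was 0.054% (95% Wilson interval 0.0466 to 0.0626%) against 0.00164 to 0.00659%, and for platelet genes 0.0399% (95% Wilson interval 0.0336 to 0.0474%) against 0.0016 to 0.00685%. The monocyte share of 0.0945% (95% Wilson interval 0.0845 to 0.106%) lay inside the blood range of 0.0704 to 0.129%. Of its 308 counts, 141 were of VCAN, which is also a gene of connective tissue. The share of haemoglobin and haem genes was 0.0285% (95% Wilson interval 0.0233 to 0.035%) in sample 57, 0.0159 to 0.0179% in the other muscle samples and 3.01 to 6.64% in blood. Set against the blood median, sample 57 held 93.8% of the monocyte share, 77.9% of the platelet share, 14.5% of the T and NK cell share and 0.60% of the haemoglobin share.

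**Figure D4:**
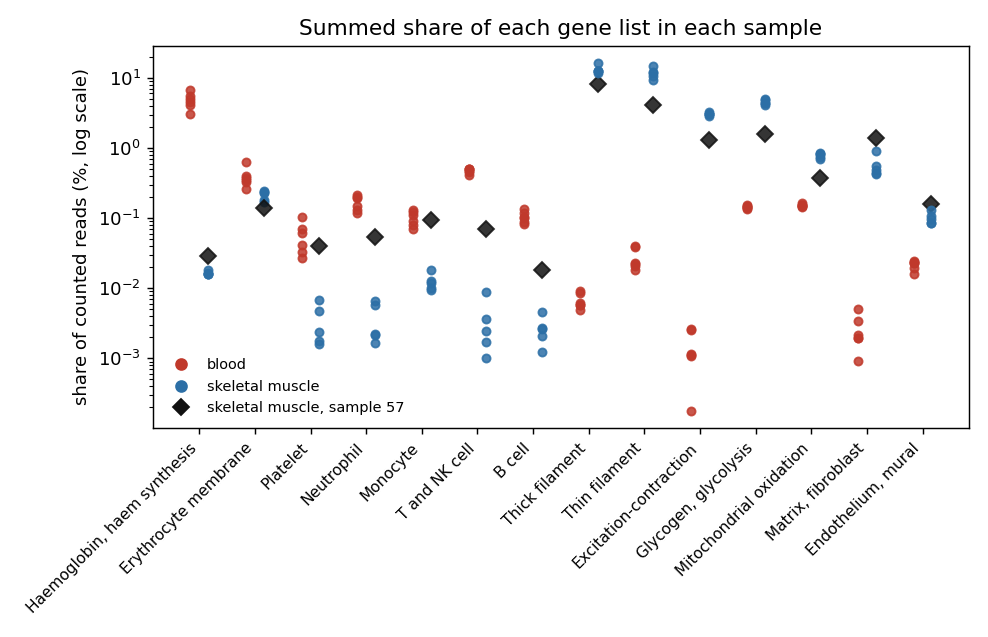
Summed share of counted reads (%, log scale) of 14 gene lists in each sample, blood in red, skeletal muscle in blue and muscle sample 57 as a black diamond. The diamond lies above the other muscle samples for every blood cell list except the erythrocyte membrane list, and for the matrix and endothelial lists. It lies below them for the filament, excitation-contraction, glycolysis and mitochondrial lists.

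The muscle lists moved the other way in sample 57. Thin filament genes took 4.08% of its counts against 9.47 to 14.6% in the other 5, and glycogen and glycolysis genes 1.6% against 4.11 to 4.98%. Thick filament genes took 8.26% against 11.6 to 16.2%. Matrix and fibroblast genes were higher, at 1.4% against 0.424 to 0.902%. Endothelial and mural genes were also higher, at 0.16% against 0.0855 to 0.132%. Fat cell genes took 0.0166% against 0.00737 to 0.0105%, and nerve sheath genes 0.0187% against 0.00198 to 0.00927%. Sample 57 was the highest muscle sample for 45 of 79 tested blood cell markers, and the lowest for 90 of 97 tested genes of the filament, Z-disc, excitation-contraction, glycolysis and mitochondrial lists. Over all 9532 tested genes it was the highest muscle sample for 2769 (29.0%) and the lowest for 3879 (40.7%). These ranks are of TMM-scaled CPM, unlike the shares above, and the larger TMM factor of sample 57 lowers all its values. By plain share sample 57 was not the lowest for MYL1 (1.71% against 1.44 to 1.86%) or XIRP2 (1.92% against 1.63 to 3.14%). It was still the lowest for MYH8, ACTA1, NEB, TPM2, ATP2A1, CMYA5, TPM1 and TNNC2.

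Counts in sample 57 were also spread over genes that no other sample showed. With all 12 samples thinned to the same depth, 1962 genes had counts in sample 57 alone, and they took 4.09% of its counts. The next highest was muscle sample 31 with 363 such genes, and the other 10 samples had 36 to 82. Some blood cell markers counted in sample 57 had no count in blood: MMP8 had 12 counts in it and 1 in the other 5 muscle samples together, MPO 9 and 3, and ELANE 2 and 0. MMRN1, multimerin of platelets, had 20 counts in sample 57, 20 in the other muscle samples together and 3 in the 6 blood samples together. Genes called higher in blood without sample 57 took 10.8% of its counts against 4.55 to 5.60% in the other muscle samples and 45.1 to 55.9% in blood, and genes called higher in muscle took 45.3% against 68.7 to 72.3% and 5.84 to 7.82%. The other 5 muscle samples took part in the fit that chose these called genes, and sample 57 did not. Part of its distance from them is therefore built in. The part of blood, of library depth and of the composition of the biopsy in these values was not tested.

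Leaving sample 57 out changed few calls among the listed genes and added calls overall. The fit of 11 samples tested 9976 genes and called 2167 higher in blood and 2498 in muscle. Of the calls made with all samples, 1785 of 1866 in blood (95.7%) and 2220 of 2272 in muscle (97.7%) were made again. Calls made only without sample 57 numbered 382 and 278, of which 77 and 116 had not been tested before, and no gene turned its direction. Within muscle the common biological coefficient of variation was 0.538 with and 0.367 without sample 57, and 0.492 within blood. Of 249 listed genes tested both times, 8 changed their call: CD40LG, PRF1, LGALS3, VCAN, MYC and UTRN were gained in blood, and SCD and NEBL were lost in muscle.

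CD40LG, the CD40 ligand of helper T cells, lay at 9.64 to 31.6 CPM (median 17.8) in blood, at 0 to 2.32 CPM in 5 muscle samples and at 39.8 CPM in sample 57, above every blood sample. Its log2 difference was 2.74 ± 1.35 (adjusted p = 0.108) with that sample and 5.50 ± 0.95 (adjusted p = 0.000116) without it. PRF1, the perforin of killer cells, moved from 2.34 ± 1.07 to 3.62 ± 0.95, and LGALS3, galectin 3 of macrophages, from 2.23 ± 0.91 to 2.71 ± 0.94. Over the 79 tested blood cell markers, the log2 difference was larger without sample 57 for 56, and by more than 1 for 20. For the 97 filament and metabolic genes the median shift was -0.21, with 94 moving further towards muscle. Downward shifts of more than 1 were not counted.

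**Figure D5:**
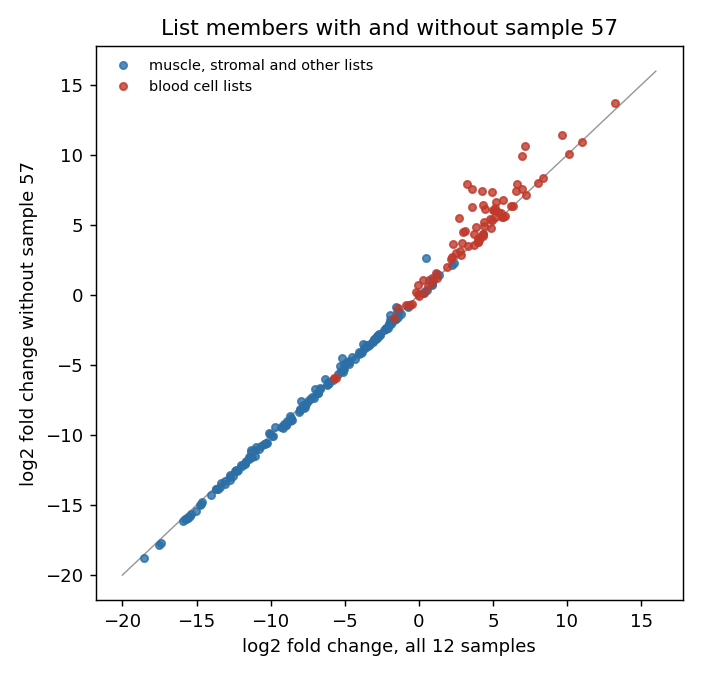
Log2 fold change of blood over skeletal muscle without sample 57 (vertical axis, 11 samples) against that with all 12 samples (horizontal axis), 1 point per tested list member, with a line of equality. Of 79 blood cell genes, 56 lie above the line, 20 of them by more than 1, and 23 below it. Of 97 filament and metabolic genes 3 lie above and 94 below it, and of 16 matrix genes 9 and 7. Points below the line by more than 1 were not counted.

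The tissue difference itself differed between the pigs for 2 of 9532 genes (0.021%) in a test of the interaction of pig and tissue, PLEK and NCAM1. PLEK, the platelet and leukocyte protein pleckstrin, was at 44.9, 28.7 and 39.8 CPM in the muscle of pig 4491 and at 2.55, 2.14 and 2.07 CPM in that of pig 4494. In blood it was at 247, 226 and 116 CPM and at 148, 199 and 243 CPM in the same order. The blood ranges overlapped between the pigs and the muscle ranges did not. Its log2 difference between tissues was 2.44 in pig 4491 and 6.46 in pig 4494, and the difference between them was 4.06 ± 0.61 (SE, adjusted p = 0.0242).

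NCAM1, a neural cell adhesion molecule that NK cells, nerves and regenerating fibres carry, was at 74.4, 152 and 119.5 CPM in the muscle of pig 4491 and at 26.8, 20.4 and 30.0 CPM in that of pig 4494. In blood it was at 0, 0.219 and 0 CPM and at 2.76, 3.28 and 4.37 CPM. Pig 4491 was thus higher in muscle and lower in blood, with no overlap in either tissue, though its blood level in that pig rests on 1 read. The difference between the pigs was 6.61 ± 0.95 (SE, adjusted p = 0.0242). Both calls held without sample 57, at an adjusted p of 0.0181 for each. The NCAM1 call was lost without any of 7 other samples and the PLEK call without any of 8, with adjusted p values up to 0.139 and 0.173. In all, 845 genes had an unadjusted p under 0.05 for the interaction.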

How the data were processed

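RNA was isolated from 6 blood and 6 skeletal muscle samples with reagent volumes scaled down, and libraries were made with a stranded total-RNA kit for low input. The authors trimmed reads with Trim Galore, aligned them with STAR to the pig genome Sscrofa10.2 and counted reads per gene with featureCounts, leaving out ribosomal RNA and mitochondrial genes. The deposited values are raw counts per gene, not normalised. RNA isolation was done in batches to which samples were assigned at random, and the batch of each sample was not given in the sources used here. The strand setting of the counting was not given either, and without strand an antisense gene cannot be told apart from its partner. Of 25114 gene IDs, 11791 have a symbol in the reference name table. Levels are not corrected for gene length.

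Counts were analysed with edgeR 4.0.16 in R 4.3.3 (TMM, filterByExpr by tissue with a minimum of 10 counts, a CPM limit of 4.6 at the median library, quasi-likelihood test, pig and tissue as terms), with DESeq2 1.42.0 as an alternative. A call needed a Benjamini-Hochberg adjusted p under 0.05 and a log2 fold change beyond 1. Measures of a whole sample were compared with exact permutation tests within pigs (SciPy 1.17.1, Python 3.11.15). The scripts were tested on simulated data. Of 469 symbols in 22 lists, 315 matched a gene ID, 15 of these had no count in the 12 samples and 249 were tested. A gene with no count in a group was given a bound from 3 counts over that group.

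The comparison, the lists and the rules were chosen with earlier results of these data known. Genes named were the 10 largest by mean share in each tissue, the 10 with a symbol and the smallest adjusted p in each direction, up to 4 per list by mean CPM, list members called against their list, list members whose call changed without sample 57 and up to 2 genes without a symbol in each direction. All other genes named were chosen after their values were seen, among them FECH, YWHAZ, DYSF, BLNK and the genes given as not called. Alternatives were DESeq2, other scalings, no filter, no pig term, counts summed per pig, dominant genes removed, equal depth, each pig alone and each sample left out. Some genes are not reported here.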

Additional observations from a re-analysis of the deposited data

Results flagged for a closer look

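Of 194 groups of 6 samples checked, each the level of a gene with at least 10 counts in a tissue, the summed share of a list or a measure of a sample, 52 held a sample far from the other 5. In these the gap of the extreme sample to its nearest neighbour, divided by the range of the group, was above Dixon's critical value of 0.625. Chance flags about 1 group in 20. Muscle sample 57 was that sample in 34 of the 52, another muscle sample in 5 and a blood sample in 13, and the genes checked overlap in what they measure. CD40LG, PRF1 and LGALS3 were named because their call changed without sample 57. Their flags follow in part from that choice, and the count for sample 57 includes them.

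Sample 57 was the highest of 6 for several genes, with gaps as a share of the range of CD40LG 0.942, CD2 0.839, TUBB1 0.837, RYR2 0.809, FCER1G 0.797, MYC 0.762, SPI1 0.747, CTSS 0.74, ACTA2 0.729, PRF1 0.707, LGALS3 0.677, FBN1 0.669 and CD22 0.632. It was the lowest for others, with gaps of PKM 0.791, CASQ1 0.778, SSPN 0.741, TPM2 0.714, TRIM63 0.712, VCP 0.703, TRDN 0.666, ANK1 0.66, GAPDH 0.641 and PYGM 0.628. By summed list share it was the highest for neutrophil (0.905), monocyte (0.899), T and NK cell (0.888), platelet (0.863), haemoglobin (0.843), B cell (0.801) and fat cell genes (0.665). It was the lowest for excitation-contraction (0.798), glycogen and glycolysis (0.741) and mitochondrial genes (0.664). The gap was 0.928 for the number of genes that hold 50% of the counts.

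The values that follow are the same gap as a share of the range. Muscle sample 43 was highest for EGR1 0.715, HBB 0.649, FOS 0.641 and ACTB 0.634, and for the immediate early list (0.661). Among blood samples, sample 28 was highest for MYH8 0.908, EPB41 0.688 and ALAS2 0.644 and for the erythrocyte membrane list (0.638). Blood sample 14 was highest for FBN1 0.815, COL3A1 0.756 and MYH6 0.672, and blood sample 27 for XIRP2 0.675 and CASQ1 0.668. Blood sample 51 was highest for RYR2 0.71 and ACTB 0.634. Blood sample 5 was highest for the myogenic list (0.634) and lowest for the number of genes detected at equal depth (0.735). The muscle genes among them, at their highest in blood, reached 16.6 CPM for MYH8 and 9.02 CPM for CASQ1.

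The tissue difference of PLEK and NCAM1 differed between the pigs by the interaction test, by 4.06 and 6.61 on the log2 scale.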

How the results depend on the processing

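Depth ranged from 325907 to 4175898 counts, and a gene with few counts could not be told apart from 0 in the shallow samples. The number of genes higher in blood, 1866, became 3044 with total counts, 4033 with total counts and without sample 57, 1096 with all samples thinned to equal depth (4737 genes tested) and 1015 in pig 4491 alone. The number higher in muscle, 2272, became 3564 with DESeq2 and 3879 with no filter on low counts (18849 genes tested in both), 3546 and 3535 for these without sample 57, and 1221 after thinning. Leaving out each sample gave 1742 to 2167 genes higher in blood and 2138 to 2498 in muscle. Genes whose tissue difference differed between pigs, 2 in all, became 20 with DESeq2 and 272 with no filter. They numbered 0 to 43 with samples left out in turn, 43 without muscle sample 43 and 0 without any of 7 samples in edgeR's test, which still gave 692 to 929 genes at an unadjusted p under 0.05. The cause was not tested. The difference in the 10-gene share ran from -11.6 to -8.21 points with samples left out, and was -2.12 for the most abundant gene alone (exact permutation p = 0.255). The difference in genes that hold 50% of the counts ran from 166 to 357. For 79 genes described, 1936 of 2033 alternative values kept direction and side of the threshold, 62 in 11 genes fell short of it, 34 passed it newly and 1 turned: SCD was 0.45 in pig 4491 alone without sample 57. The fits that combined another choice with leaving out sample 57 were chosen after seeing the data. Samples of the tissues share a pig, with no number that pairs them 1 to 1, so pig was a covariate. Without it the counts were 1800 and 2283, and with counts summed per pig and tissue, which pairs the tissues by animal, 1676 and 2509.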

Other observations

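Gene families outside the lists were chosen after the values were seen, are described by counts and carry no test of their own. Over all genes tested, 19.6% were higher in blood and 23.8% in muscle, which is the background for each family. All 12 tested collagen chains were higher in muscle, with a median log2 fold change of -8.74, as were all 5 laminin chains, the basement membrane proteins (-8.09, with 4 called without sample 57). Of 17 tested subunits of mitochondrial NADH dehydrogenase, 16 were higher in muscle and none in blood (median -2.84). The nuclear-encoded subunits alone are in the table.

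Of 8 tested toll-like receptors, the sensors of microbial molecules, TLR1, TLR2, TLR6, TLR7 and TLR8 were higher in blood and none in muscle. Of 18 tested interleukin receptors, 12 were higher in blood, against 19.6% of all genes tested. The 4 higher in muscle were IL17RD, IL1R1, IL11RA and IL13RA1. That number is near the background share of 23.8% and so no result about the family. All 3 tested GIMAP genes, which encode lymphocyte GTPases, were higher in blood (median 5.30). Of 36 kinesins and centromere proteins, 17 were higher in blood and 6 in muscle, where over all genes tested the shares were 19.6% and 23.8%.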
